A study of Homo sapiens with 4 samples.

Results

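Gene deserts, taken here as intergenic sequence more than 300 kb from the 5′ end of any protein-coding gene, held 1265 of the 9145 regions that GATA3 occupied in both replicates (13.8%, 95% Wilson interval 13.1 to 14.6). The cells were H1 hESCs, an established line of pluripotent human embryonic stem cells, grown with BMP4 at 50 ng/ml for 6 h. GATA3 was mapped by chromatin immunoprecipitation and sequencing (ChIP-seq) in 2 replicates, and 2 input chromatin samples entered only through the peak calling of the authors. All 4 samples came from this 1 line, no untreated GATA3 ChIP sample was compared here, and the labels do not say how the replicates, which the study calls biological, were separated. A shared region was a replicate 1 peak position within 100 bp of a replicate 2 position, centred on their mean, and it was a member when its centre lay outside every protein-coding gene body and beyond 300 kb from every protein-coding 5′ end of GENCODE release 44 (hg38). The files gave positions only, with no peak height, width or q-value, so nothing below speaks of the strength of binding. Intervals and p-values cover counting error over regions only.

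Gene deserts are long stretches without protein-coding genes, and many lie beside genes for developmental regulators or for neuronal surface proteins. Enhancers can act on a promoter from far away along the chromosome, and deserts beside developmental genes are known to hold such distant enhancers. GATA3 is a zinc finger transcription factor of trophoblast, T cell and other lineages that recognises the hexamer WGATAR, the core GATA with A or T (W) before it and A or G (R) after it.

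The sequences of members beside genes followed in the study come first. For each gene the nearest member with a WGATAR site was taken, so the presence of a site was chosen. At ID2 and SOX2 a nearer member, 413.6 and 327.9 kb away, held 0 sites and was passed over. Each sequence is 60 bases of hg38 around the WGATAR site nearest to the centre, written 5′ to 3′ on the strand where that site reads as WGATAR. All WGATAR sites of either strand are in capitals. The distance is that from the centre of the region to the 5′ end of the named gene. For ID2 the site is off centre, and both peak positions (8264215 and 8264174) lie outside the printed bases. The named gene is not always the nearest, as at SOX2, where another protein-coding 5′ end was 327.0 kb away. The ISL1 member shown has a similar sequence among the other shared regions.
GATA3 desert, 304.7 kb downstream (chr10:8350043-8350102, minus strand): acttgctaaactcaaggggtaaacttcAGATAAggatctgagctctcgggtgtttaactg
BMP4 desert, 358.9 kb downstream (chr14:53599853-53599912, minus strand): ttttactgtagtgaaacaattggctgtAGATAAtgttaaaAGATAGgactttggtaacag
ID2 desert, 414.7 kb upstream (chr2:8264097-8264156, minus strand): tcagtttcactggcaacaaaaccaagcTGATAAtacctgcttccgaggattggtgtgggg
SOX2 desert, 395.2 kb upstream (chr3:181316702-181316761, plus strand): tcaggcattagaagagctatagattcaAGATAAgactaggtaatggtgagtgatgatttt
ISL1 desert, 473.1 kb downstream (chr5:51856525-51856584, minus strand): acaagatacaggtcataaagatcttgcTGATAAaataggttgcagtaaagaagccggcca
TBX3 desert, 719.3 kb upstream (chr12:115403422-115403481, plus strand): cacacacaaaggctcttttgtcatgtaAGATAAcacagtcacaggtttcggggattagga

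A further pair of members was picked for the sites they hold. The member between SEL1L and FLRT2 held the most WGATAR sites, 13 in 200 bp, most of them in a tract where CTAT repeats on the printed strand. The member between EPHA3 and PROS1 was picked for the smallest gap between the POU octamer and a WGATAR site among the members searched. It held the octamer (ATGCAAAT, here read from the other strand) directly against an AGATAA site, with 0 bases between.
SEL1L to FLRT2 (chr14:84641130-84641329, plus strand): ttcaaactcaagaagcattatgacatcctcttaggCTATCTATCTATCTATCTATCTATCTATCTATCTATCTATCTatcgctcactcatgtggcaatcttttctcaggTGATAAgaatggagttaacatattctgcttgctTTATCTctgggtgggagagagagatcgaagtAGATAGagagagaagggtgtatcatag
EPHA3 to PROS1 (chr3:90069943-90070002, plus strand): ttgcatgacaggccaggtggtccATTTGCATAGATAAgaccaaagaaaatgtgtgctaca

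The members were spread over many deserts and lay less densely there than shared regions did elsewhere. There were 760 desert intervals, 576.1 Mb outside assembly gaps or 19.6% of the chromosomes, and 436 of them held at least 1 member. Of these, 149 held a single member and 75 held 5 or more, which together made up 547 of the 1265. The density was 2.20 members per Mb of desert (95% Poisson interval 2.08 to 2.32), against 3.34 shared regions per Mb of the remaining sequence (3.26 to 3.41). Since the rule asks for distance from genes, this difference describes the set and was not tested. Both lengths leave out assembly gaps only, and not sequence that the authors' filters of multiply mapped reads and blacklisted regions removed. How much of such sequence lies in deserts was not measured.

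The median member lay 580.8 kb from the nearest protein-coding 5′ end, with quartiles at 405.4 and 890.1 kb, and 248 members (19.6%) lay more than 1 Mb away. Only 29 (2.29%) were within 50 kb of any protein-coding gene body. Neighbouring members of the same desert were a median of 127.4 kb apart over 829 pairs, of which 86 were under 10 kb and 14 under 1 kb apart. At the threshold itself, the nearest members inside were at chromosome 4, 79824792 in replicate 1 and 79824735 in replicate 2, 300.7 kb from ANTXR2, and at chromosome 3, 18847786 and 18847787, also 300.7 kb from KCNH8. Just outside were regions at 300 kb from EPHA3, to the nearest kb, and at 299.6 kb from ETNK1.

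The first comparison asked whether positions in deserts were found again in the other replicate as often as positions elsewhere. Replicate 1 had 2597 of its 18456 positions in deserts, and 48.7% of these were shared (95% CI 46.8 to 50.6), against 49.7% of its other positions (odds ratio 0.962, 95% CI 0.885 to 1.04, two-sided Fisher's exact p 0.363, adjusted over both replicates 0.725). Replicate 2 had 1775 of 12782 positions in deserts, and 71.3% were shared (69.1 to 73.3), against 71.6% elsewhere (odds ratio 0.984, 0.881 to 1.10, Fisher's exact p 0.777, adjusted 0.777, and an odds ratio of 1.03 without the short arm of chromosome 21, described next). Neither difference passed the threshold of 0.05. The 2 positions of a member were a median of 23 bp apart, as in the other shared regions, and 46.0% of members had them within 20 bp against 44.8% of the others (odds ratio 1.05, Fisher's exact p adjusted over 5 features 0.447).

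The desert with the most members was unlike the rest. It lay on the short arm of chromosome 21, from the start of the chromosome to TPTE, and held 33 members in 3.86 Mb, from 63 positions in replicate 1 and 70 in replicate 2. A WGATAR site was in 13 of these 33 windows (39.4%), against 1048 of the 1232 members elsewhere (85.1%). The authors' name for 20 of the 33 was RNA5-8S5, a ribosomal RNA gene, and 2 of those 20 held WGATAR. The median GC content of the 33 windows was 50.5%, and 29 had a similar window among the shared regions. The 3 members farthest from any protein-coding gene were also here, 4772, 4746 and 4625 kb from TPTE, with 2 WGATAR sites each. Repeated sequence is placed with difficulty from short reads, and its part in these positions was not tested, so values that change side or direction without this arm are also given without it.

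Of the 10 deserts with the most members, 8 had 10 to 12 members each, and most of their members held WGATAR, as did 83.9% of all members. Between MAT2B and TENM2, a teneurin of the synapse, there were 12 members from 19 and 17 positions. The interval from SLITRK5, a neuronal transmembrane protein, to GPC5 had 11 members from 21 and 17 positions, of which 8 held WGATAR. From CDC73 to KCNT2, a potassium channel, there were 11 from 17 and 15 positions.

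Each of 5 further deserts among these had 10 members. PCDH7, a protocadherin, and ARAP2 enclosed 10 from 17 and 16 positions, spread over 4.78 Mb of desert with all 10 holding WGATAR. NCAM2, a neural cell adhesion molecule, and MRPL39 enclosed 10 from 13 and 12 positions, of which 7 held WGATAR. OLFM4 and the PRR20A/PRR20C genes enclosed 10 from 27 and 20 positions, and all 10 held WGATAR while 7 had a similar window among the other shared regions. The interval from CTNNA2 to SUCLG1 had 10 from 16 and 11 positions, and that from SPRY2, an inhibitor of receptor tyrosine kinase signalling, to SLITRK1 had 10 from 21 and 13. In the map of these deserts, members and unshared positions were interspersed, and the members between PCDH7 and ARAP2 lay mostly in the right part of the interval.

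**Figure D1:**
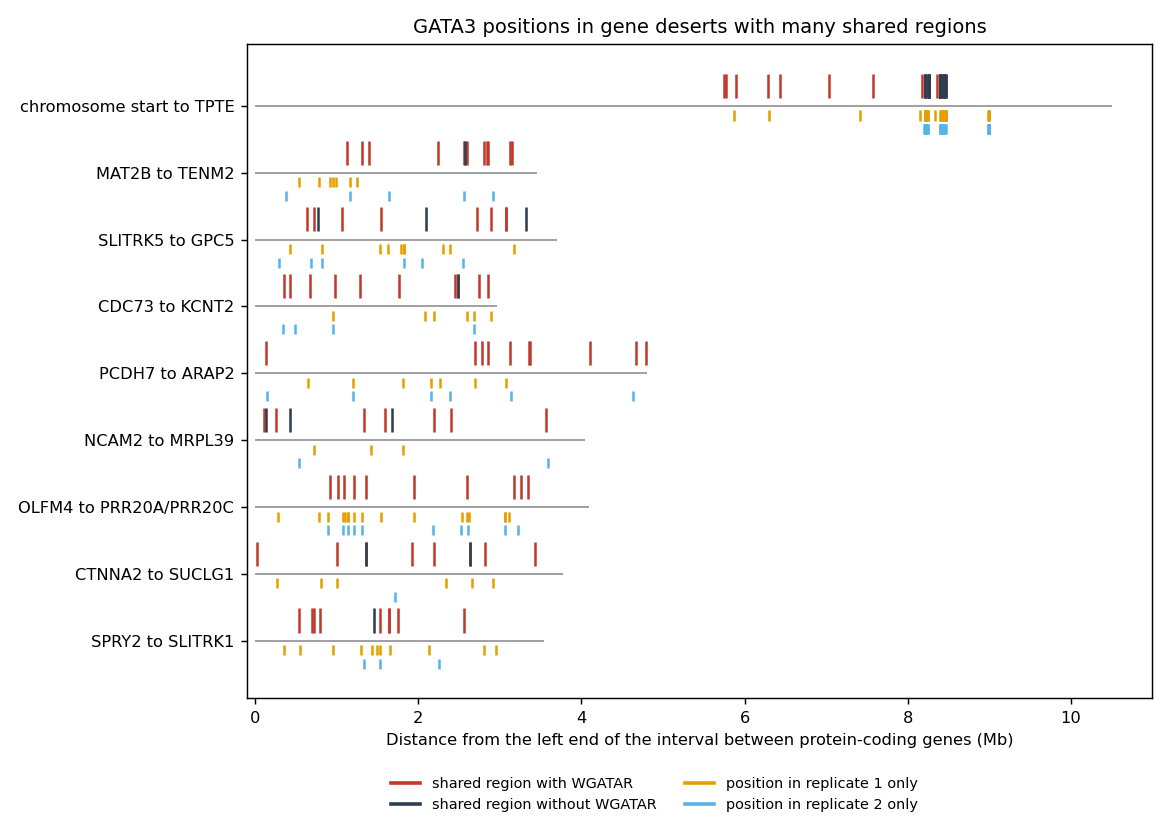
Positions of GATA3 in 9 of the 10 gene deserts with the most members; the x axis is the distance in Mb from the left end of the interval between protein-coding genes, grey lines are the intervals, long ticks above a line are shared regions with (red) or without (dark) WGATAR, and short ticks below are positions of replicate 1 only (orange) and replicate 2 only (blue). The 33 members of the first interval are crowded near its right part and 20 of them lack WGATAR, whereas the other 8 intervals hold 10 to 12 members each. A position of 1 replicate only has none of the other replicate within 100 bp.

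Over the whole set, the flanks of the deserts were described with 6 lists of genes, beside the share of desert length that the same genes flank. Genes of neuronal adhesion and axon guidance flanked 410 members (32.4%, 95% CI 29.9 to 35.0) and 29.2% of desert length. Developmental transcription factors flanked 164 members (13%, 11.2 to 14.9) and 10.9% of the length. Ion channels and neurotransmitter receptors flanked 105 (8.30%, 6.90 to 9.95) and 7.35% of the length, and secreted signals 14 (1.11%, 0.660 to 1.85) and 0.927%. The list of early and lineage genes drawn from the study's text flanked 24 (1.90%, 1.28 to 2.81) and 1.19% of the length. In each of these 5 lists the share of members was somewhat above that of length. Olfactory receptor genes flanked 1 member (0.0791%, 0.0140 to 0.446) and 1.77% of desert length. No test was made of these shares, because neighbouring members share a desert and its genes. Desert length leaves out assembly gaps only, and sequence lost to the authors' filters of reads and blacklisted regions was not taken off. The part of such sequence in these shares was not tested. The direction of the flanking genes made little difference, with 2.26 members per Mb where both 5′ ends faced the desert (95% Poisson interval 1.99 to 2.56), 2.21 where both 3′ ends did (1.99 to 2.45) and 2.14 where one of each did (1.98 to 2.32).

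**Figure D2:**
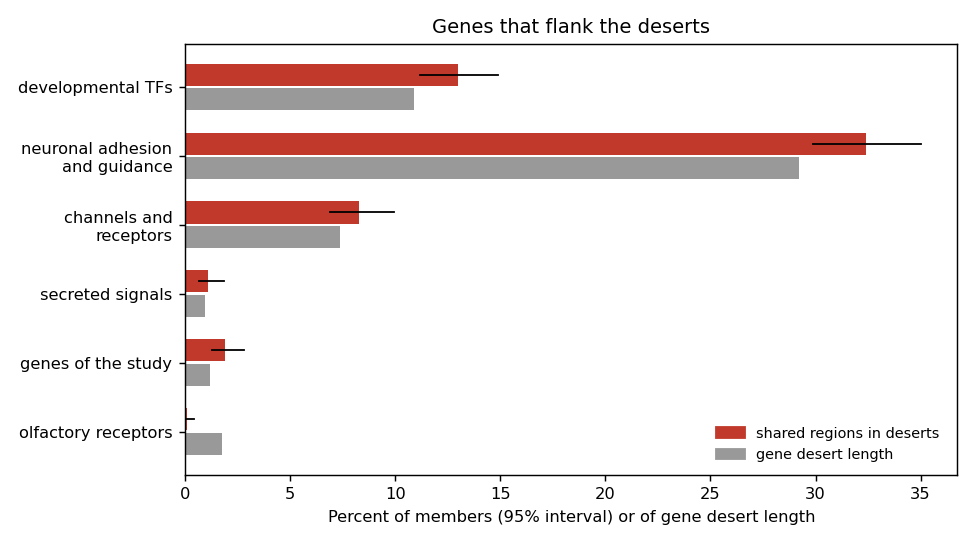
Share of the 1265 members (red bars, black lines are 95% Wilson intervals) and of the 576.1 Mb of desert length (grey bars) that lie beside a gene of each of 6 lists, in percent on the x axis. Neuronal adhesion and guidance genes flank the most of both, 32.4% and 29.2%, and olfactory receptor genes flank 0.0791% of members and 1.77% of length.

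Among adhesion and guidance genes, the deserts on either side of NCAM2 and of SLITRK5 held 18 members each, those beside PCDH7 held 17 and those beside EPHA7, an ephrin receptor, held 15. The members beside NCAM2 lay 335.8 to 4110 kb from its 5′ end. Among transcription factors, BCL11B, a zinc finger factor of T cells and neurons, had 9 members 383.2 to 2053 kb from its 5′ end. BCL11A, its paralog known for silencing fetal globin, had 6 from 508.9 to 1919 kb, ID2 had 6, and RORB, an orphan nuclear receptor, had 6 from 411.5 to 881.6 kb. ZEB2, a repressor of E-cadherin, also had 6, all of them 2019 to 2843 kb away and all nearer to another protein-coding 5′ end. Of the channels and receptors, KCNT2 had 11, the serotonin receptor gene HTR2C had 7 between 779.6 and 1278 kb, and KCNV1, also with 7, and GRIK2, a kainate receptor gene with 6, followed. A desert can count for the genes at both its ends, so these numbers overlap, and a gene named here need not be the nearest to its members.

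A list of 25 early, lineage and pluripotency genes was drawn from the study's text and does not hold every gene named there. Of these, 7 flanked a desert, 6 with a member. The remaining gene, ID4, a BMP-responsive inhibitor of basic helix-loop-helix factors, flanked 0.850 Mb of desert with 3 positions in replicate 1 and 1 in replicate 2, and none was shared.

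GATA3 itself (chromosome 10, 8045378 to 8075198, plus strand) opens on its 3′ side to a desert of 2.15 Mb that ends at CELF2. Each replicate had 10 positions in it, and 5 were shared, all downstream of GATA3. All 5 held WGATAR, as did 83.9% of all members. The member nearest to the gene was at 8350046 in replicate 1 and 8350073 in replicate 2, 304.7 kb from the 5′ end. The next was at 8648050 and 8648036, 602.7 kb away. A pair followed at 9239505 and 9239566 (1194 kb) and at 9262959 and 9262966 (1218 kb), and the last was at 9510728 and 9510790 (1465 kb). None of the 5 had a similar window among the other shared regions, and none was inside a lncRNA gene.

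BMP4 (chromosome 14, 53949736 to 53958761, minus strand), the ligand added to these cells, had 0.205 Mb of desert on its 3′ side towards DDHD1. There were 4 positions in replicate 1 and 2 in replicate 2. The shared ones lay at 53599884 and 53599892, 358.9 kb downstream with 2 WGATAR sites, and at 53581667 and 53581642, 377.1 kb downstream with 0 sites and a similar window elsewhere. Both were inside a lncRNA gene body. BMP2, a related ligand that the study's text does not list, had 2 members 869.7 and 871.5 kb downstream, at 7637374 and 7637387 and at 7639236 and 7639198 of chromosome 20, with 1 WGATAR site each.

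ID2 (chromosome 2, 8678845 to 8684461, plus strand), a canonical target of BMP signalling, had 6 members upstream in 1.16 Mb of desert, from 10 and 8 positions. They fell into groups, with 3 of them 413.6, 414.7 and 423.1 kb away, 2 at 778.8 and 800.1 kb, and 1 at 981.2 kb. WGATAR was in 3 of the 6. The 3 nearest to ID2 were inside lncRNA gene bodies there, at 8265246, 8264215 and 8255717 in replicate 1 and 8265330, 8264174 and 8255768 in replicate 2.

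SOX2 (chromosome 3, 181711925 to 181714436, plus strand), a pluripotency factor, had deserts on both sides and 5 members from 10 positions in replicate 1 and 5 in replicate 2, so that every desert position of replicate 2 was shared. Upstream were members at 395.2 kb (181316747 and 181316755), with 1 WGATAR site, and 327.9 kb (181384074 and 181383986), with 0 sites, both inside a lncRNA gene body. Downstream were members at 468.9 kb (182180819 and 182180799), 522.2 kb (182234164 and 182234146) and 547.0 kb (182258943 and 182258908) with 4, 1 and 5 WGATAR sites. The last also held the POU octamer.

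ISL1, a LIM homeodomain factor of heart and motor neuron precursors, had 3 members downstream at 473.1, 580.9 and 778.7 kb with 2, 1 and 0 WGATAR sites. Those at 473.1 and 778.7 kb had a similar window among the other shared regions. TBX3, a T-box repressor, had 3 members upstream. They were at 719.3 kb (115403419 and 115403450 on chromosome 12) with 3 sites, and at 823.1 kb (115507331 and 115507314) and 823.9 kb (115508103 and 115508096) with 1 and 2 sites, the last 2 less than 1 kb apart. The desert of TBX3 held 9 positions of replicate 1 and 5 of replicate 2. GATA3, BMP4, ID2 and TBX3 flank a desert on 1 side only, so their members could lie only there. SOX2, ISL1 and BMP2 have deserts on both sides. Of these, SOX2 had members on both sides, and ISL1 and BMP2 on 1 side. In the plot of distances, unshared positions were mixed among the members.

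**Figure D3:**
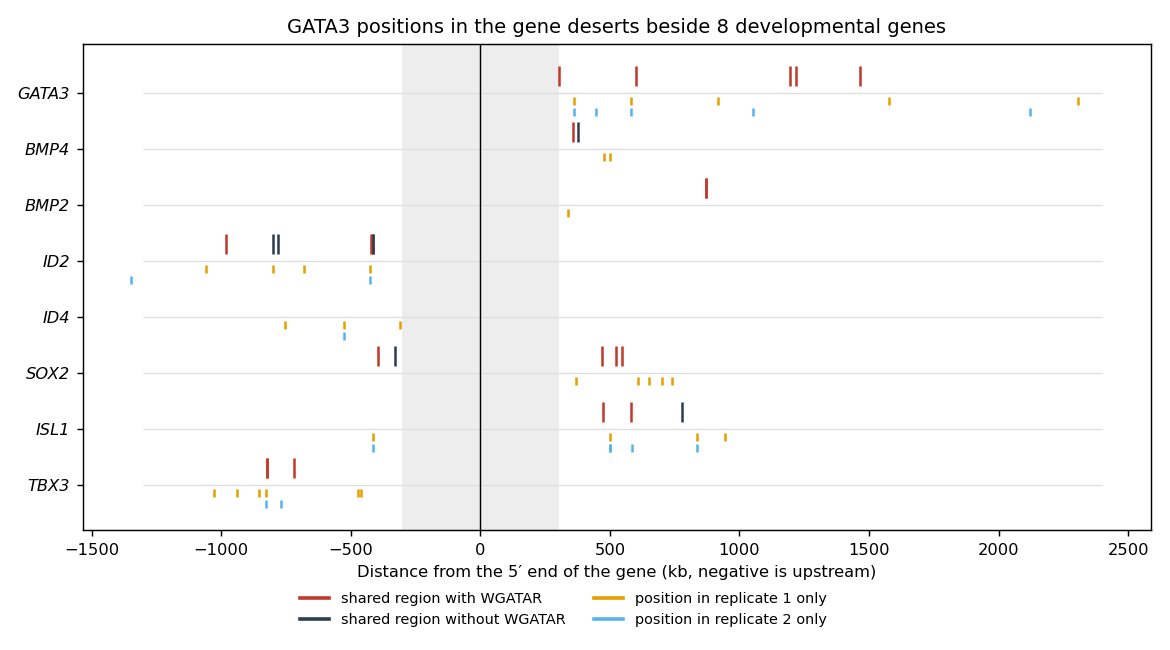
GATA3 positions in the deserts beside 8 developmental genes, by distance in kb from the 5′ end of each gene (negative is upstream); long ticks are shared regions with (red) or without (dark) WGATAR, short ticks are positions of replicate 1 only (orange) and replicate 2 only (blue), and the grey band marks the 300 kb on each side that the rule leaves out. All 5 members of GATA3 hold WGATAR, as do 83.9% of all members, and ID4 has no member. A position of 1 replicate only has none of the other replicate within 100 bp.

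The next comparison asked whether the DNA under the members carried the GATA site as often as other shared regions. In windows of 200 bp, 1061 of 1265 members held WGATAR (83.9%, 95% CI 81.7 to 85.8), against 81.7% of the 7880 other shared regions and 82.0% of all of them (odds ratio 1.17, 0.994 to 1.37, two-sided Fisher's exact p 0.0587, adjusted over the 13 motifs of the panel 0.127). Without the short arm of chromosome 21 the odds ratio was 1.28 (Fisher's exact, adjusted p 0.00911). That arm was set aside after the data were seen, and only members were dropped, of which 39.4% held WGATAR. The rise was thus fixed by the choice, and this p-value is no test of it. Pooled over quintiles of GC content, with the arm kept, the odds ratio was 1.01 (0.855 to 1.19, adjusted p 0.966) and in windows of 100 bp 0.996. Members held a mean of 1.36 sites, with 581 members holding 1, 359 holding 2, 84 holding 3 and 37 holding 4 or more. At least 2 sites were found in 37.9% of members, against 34.0% of the others and 34.6% of all shared regions (odds ratio 1.18, Fisher's exact p adjusted over 5 features 0.00933), and with GC quintiles the odds ratio was 1.03 (adjusted p 0.693). Of the 204 members without WGATAR, 124 (60.8%) held the core GATA or its reverse complement TATC.

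Sites were concentrated at the centre of the members as they were in other shared regions. The 20 bp bins on either side of the centre had 12.3 and 13.4 sites per kb, and the bins farthest from it, up to 200 bp away, had 2.25 and 3.0. The site nearest to the centre was a median of 19.0 bp away in members, 18.0 bp in other intergenic regions and 17.0 bp in regions inside genes. It was AGATAA in 54.4% of members, TGATAA in 26.4%, AGATAG in 13.3% and TGATAG in 5.83%, and the order of the 4 spellings was also that of the other 2 sets.

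**Figure D4:**
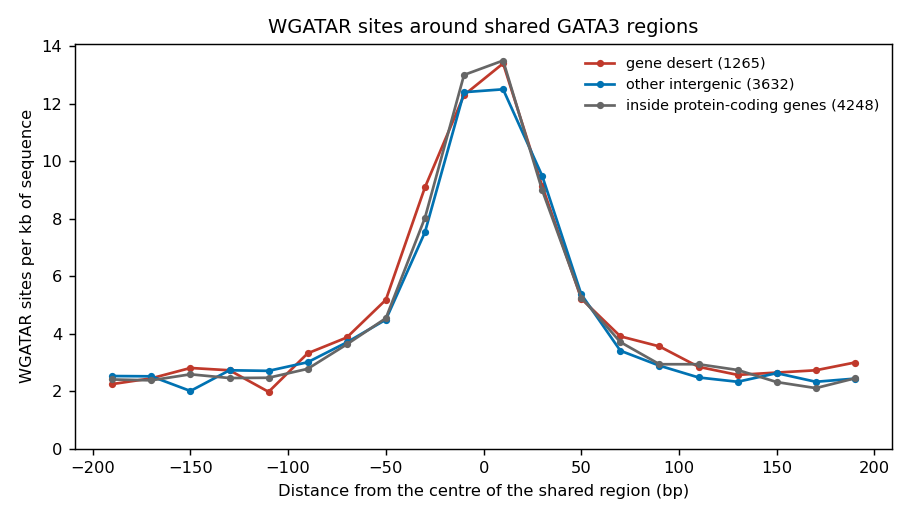
WGATAR sites per kb of sequence in 20 bp bins by distance from the centre of the shared region (bp), for the 1265 members (red), 3632 other intergenic (blue) and 4248 genic shared regions (grey). All 3 curves peak at the centre, where members have 12.3 and 13.4 sites per kb in the bins on either side.

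A panel of 13 motifs, searched on both strands, set members against the other shared regions. The letters of WGATAR in reverse order, ATAG with A or G before it and A or T after it, served as a control for base composition and were in 38.2% of members and 31.7% of the others, against 32.6% of all (odds ratio 1.33, 1.18 to 1.51, Fisher's exact p 3.89e-05 with adjustment over all 13). The control can overlap WGATAR, as in AGATAGA. The SOX consensus, ACAAAGG or ACAATGG, was in 15.9% and 12.9% (13.3% of all, odds ratio 1.27, adjusted p 0.0161). The AP-2 consensus GCCNNNGGC was lower, in 2.37% and 4.51% (4.21% of all, odds ratio 0.515, adjusted p 0.00118), and so was the GC box GGGCGG, in 2.06% and 5.81% (5.29% of all, odds ratio 0.340, adjusted p 1.48e-08). The octamer, bound by POU factors, was in 6.32% of members, 4.87% of the others and 5.07% of all (odds ratio 1.32, 1.03 to 1.69, adjusted p 0.0840). Without the short arm of chromosome 21 its odds ratio was 1.36 (adjusted p 0.0459), and with WGATAR also past the threshold 6 of the 13 motifs passed instead of 4. The rise for WGATAR there follows from dropping members that were low in it. For AP-1, TGACTCA or TGAGTCA, the odds ratio was 1.25 (0.981 to 1.59, adjusted p 0.141), for the TEAD consensus GGAATG 1.08 (0.931 to 1.26) and for the SMAD element GTCTG 1.04 (0.922 to 1.18). The remaining 4 did not pass the threshold either. The E-box CACCTG was in 12.4% of members, the SMAD1/5 element GGCGCC in 1.74%, the T-box element TCACACCT in 0.711% and the CTCF consensus in 0.395%, which is 5 members.

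Members differed from the other shared regions in base composition. They had a median GC content of 42.0% (quartiles 38.5 and 46.0) against 44% (40 and 49.0) in the others, and pooled over GC quintiles 0 of the 13 motifs passed an adjusted p of 0.05. The GC box then had an odds ratio of 0.549 (0.365 to 0.827, adjusted p 0.0594), the reversed hexamer 1.15 (1.02 to 1.31, adjusted p 0.195) and the SOX consensus 1.18 (0.997 to 1.39, adjusted p 0.245). The share of windows with GC content of 50% or more was 9.80% in members and 21.8% in the others (odds ratio 0.391, Fisher's exact p adjusted over 5 features 3.19e-25). A CpG was in 70.0% against 78.5% (odds ratio 0.642, adjusted p 1.83e-10), and with GC quintiles its odds ratio was 0.788 (adjusted p 0.00163). Of the members with the octamer, 60 of 80 also held WGATAR, as did 170 of 201 with the SOX consensus and 73 of 85 with AP-1.

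**Figure D5:**
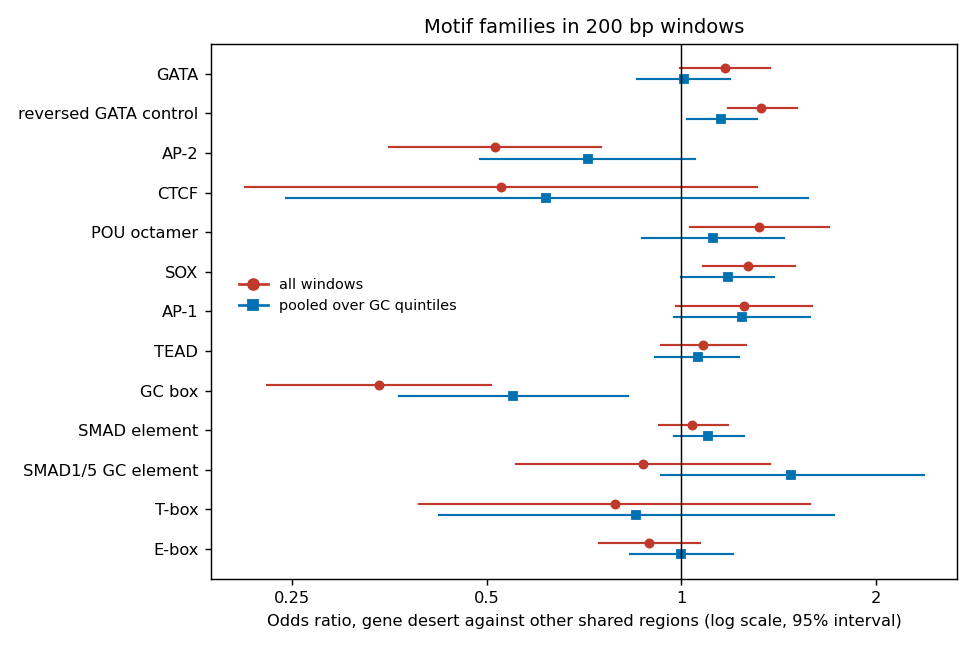
Odds ratios of 13 motif families in 200 bp windows of members against other shared regions, on a log scale with 95% intervals, for all windows (red circles) and pooled over quintiles of GC content (blue squares). GC box and AP-2 lie furthest below 1, at 0.340 and 0.515, and both move towards 1 in the pooled values.

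Many members had close relatives among the other shared regions. A window was called similar to another when blastn aligned at least 100 bp at 80% identity or more, and 394 members (31.1%, 95% CI 28.7 to 33.8) had such a relative, against 22.3% of the others and 23.5% of all (odds ratio 1.58, 1.39 to 1.80, Fisher's exact p adjusted over 5 features 4.14e-11). Against the other intergenic shared regions alone, of which 28.6% had one, the odds ratio was 1.13 (adjusted p 0.115). Members with and without a relative held WGATAR at 84.3% and 83.7%. The relatives formed 187 families in all, 77 of them with a member, and the 10 largest took in 253 members. The authors left out multiply mapped reads, and the part of that step in which copies appear here was not tested.

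The largest family had 420 shared regions on 18 chromosomes, 73 of them members in 64 deserts. WGATAR was in all 73 member windows and in 98.1% of the family. A pair of GATA sites that face each other, on opposite strands with 4 bases between, was in 252 of the 420 and in 43 of the 73. Only 8 shared regions with no relative had such a pair, 2 of 871 members and 6 of 6125 others. The SOX consensus was in 31 of the 73 members of this family.

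The sixth family had 76 regions, 18 of them members in 17 deserts, and 98.7% held WGATAR. The next largest families after the first had 46 of 240 and 40 of 239 regions in deserts, with WGATAR in 88.8% and 86.2% of windows. The fourth, with 19 of 100 in deserts, held WGATAR in 57.0% and differed in that 13 of its 19 members held the octamer. The seventh had the largest share of members among the 10 largest families, 23 of 58, and held WGATAR in 50.0%.

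Outside the families the most frequent arrangement of 2 GATA sites in members was another. Sites in the same direction 12 bp apart, start to start, were in 21 of the 871 members without a relative (2.41%) and in 71 of 6125 such other regions (1.16%). This spacing was picked after the counts were seen and was not tested.

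Members lay inside lncRNA gene bodies more often than other intergenic regions. The share was 436 of 1265 (34.5%, 95% CI 31.9 to 37.1), against 28.9% of 3632 other intergenic and 30.3% of all intergenic shared regions (odds ratio 1.30, 1.13 to 1.48, two-sided Fisher's exact p 0.000221). It was 1.27 without the short arm of chromosome 21 and 1.12 for members beyond 500 kb (Fisher's exact p 0.196). By length, lncRNA bodies cover 26.5% of the deserts and 27.2% of the other intergenic sequence. In lncRNA exons the order was the opposite, with 1.82% of members and 3.83% of the others (odds ratio 0.465, Fisher's exact p 0.000347), 23 members in all.

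The host with the most members, ENSG00000280441, lay on the short arm of chromosome 21 and held 13, of which 2 had WGATAR. The others named here were picked from the hosts with at least 3 members after their values were seen. LINC01208 (chromosome 3, 176415439 to 176867838, minus strand) held 5, all with WGATAR. LINC00458, a lncRNA of pluripotent cells (chromosome 13, 53950255 to 54270397), held 4 with WGATAR, and lies in the desert beside OLFM4. RMST, which is known as a partner of SOX2 in neurogenesis (chromosome 12, 97430884 to 97598415, plus strand), held 4, of which 2 had WGATAR. LINC00298 and LINC00299, which overlap each other in the desert upstream of ID2, held 3 each.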

How the data were processed

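GATA3 ChIP-seq positions from 2 replicates of H1 hESCs were used. According to the methods, the authors trimmed reads with cutadapt, aligned them with bowtie to hg38, dropped Picard duplicates, left out multiply mapped reads and blacklisted regions, and called peaks with MACS2 in each replicate against its input. The deposited values are base positions, 1 per line, with a gene name. Their numbers differ from the peak counts in the study's text, so 1 position may not stand for 1 peak. Whether bases count from 0 or 1 was not given in the sources used here, so positions are uncertain by at least 1 bp. Read depth cannot be read from them. The members and lists were chosen with earlier results of these data known.

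Distances and lncRNA bodies came from GENCODE release 44 and sequence from hg38, read with pysam 0.24.0. Shares were compared by two-sided Fisher's exact tests (scipy 1.17.1) with Benjamini-Hochberg adjustment, and GC strata with statsmodels 0.14.6. Similar windows came from blastn 2.17.0. Python 3.11.15 was used, and the code was tested on simulated data. A soft-mask test could not be run because the reference is in capitals, and thresholds for similarity, the test on 2 or more sites and the exclusion of the chromosome 21 arm were chosen after seeing the data. Genes named flank the 10 deserts with the most members, the 3 farthest members and those at the threshold, or lead a list. The genes of the study and BMP2 are named whatever their members, families are named by their size, and lncRNA hosts were picked after their values were seen. Some genes and sequences are not reported here.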

Additional observations from a re-analysis of the deposited data

How the results depend on the processing

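Settings without the chromosome 21 short arm, and those for the shares of CpG, GC, similar windows and 2 or more sites, were chosen after seeing the data, and the rest had been listed earlier. No paired analysis was possible because positions of the inputs were not analysed here, which leaves 1 group. The number of members was 751 beyond 500 kb and ran from 1775 to 2597 positions with 1 replicate alone. The share of shared regions in deserts was 18.3% at 200 kb, 8.21% at 500 kb and 12.1% with all transcript 5′ ends, all of which follow from the definition itself. The odds ratio for WGATAR was 1.29 at 50 bp, 1.19 at 200 kb, 1.23 against other intergenic regions, 1.23 without similar windows and 1.28 without the short arm, each past an unadjusted 0.05. The rise without the short arm follows from dropping members that were low in WGATAR. The odds ratio was 0.996 in 100 bp windows, 1.03 beyond 500 kb (Fisher's exact p 0.766) and 1.01 with GC quintiles. Against other intergenic regions, with GC quintiles and no short arm, it was 1.17 and not past 0.05. With 1 replicate alone it ran from 1.09 to 1.14, where the higher value, for replicate 1, was past 0.05 (Fisher's exact p 0.0133). The panel count was 7 at 200 kb, 6 without the short arm and 0 with GC quintiles, also with other intergenic regions and no short arm. The lncRNA odds ratio was 1.12 at 500 kb. The odds ratio of sharing turned to 1.01 and 1.06 at 50 bp in replicates 1 and 2, and to 1.03 in replicate 2 without the short arm, none past the threshold in either direction. Similar windows gave 1.13 against other intergenic regions, and 2 or more sites 1.03 with GC quintiles. The causes were not tested. The WGATAR difference thus rests on the setting. Depth was not known and set no limit that could be given.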

Other observations

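The density of members ranged among chromosomes from 0.616 per Mb of desert on Y and 0.724 on chromosome 22 to 3.93 on chromosome 21, where the short arm held 33 of 57 members. Chromosome 2 had the most members, 134 in 51.3 Mb. The gene name in the deposited lists was the same for both replicate positions in 1264 members. It was a protein-coding gene of GENCODE release 44 for 5 members, a pseudogene for 281, a lncRNA for 84 and another class, mostly small RNAs, for 159, while 736 names were not in that release.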
